A study of Mus musculus with 24 samples.

Results

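The miR-17-92 cluster is a run of 6 microRNA (miRNA) hairpins made from one transcript, and its mature products were followed in small RNA libraries of male mouse germ cells lacking Argonaute proteins. The members were 9 mature miRNAs of the cluster, of 1978 mature miRNAs in the table, chosen with earlier results of these data known. They were mmu-miR-17-5p, mmu-miR-17-3p, mmu-miR-18a-5p, mmu-miR-18a-3p, mmu-miR-19a-3p, mmu-miR-19b-3p, mmu-miR-20a-5p, mmu-miR-20a-3p and mmu-miR-92a-3p. Libraries came from 3 genotypes of C57BL/6J males aged 10 to 15 weeks, Ago413+/+ (wild-type), Ago413+/- (1 deleted chromosome) and Ago413-/- (both). The deletion removes all of Ago1 and parts of the neighbouring Ago3 and Ago4 from every cell of the body, testis soma included, and was made in 129 embryonic stem cells and a Sox2-cre deleter cross before backcrossing. It is thus a single engineered line, and Ago2 was left intact. Pachytene and diplotene spermatocytes (SP) and round spermatids (RS) were enriched on a BSA gradient from testes of 2 to 5 pooled mice, and each of the 6 combinations of genotype and stage had 4 libraries, 24 in all. The labels do not say that the 4 came from separate groups of animals, so p-values measure the spread between libraries. The libraries summed to between 182904 and 1072637 counts each, and 3 counts, the most that a count of 0 allows, stand for 16.4 to 2.80 CPM, the count scaled to a fixed library size. This limit covers counting error only. Levels below are CPM scaled by trimmed mean of M-values (TMM) factors over all 24 libraries, and in a bulk fraction fewer cells of a type and less RNA per cell cannot be told apart.

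miRNAs are cut from hairpins by Drosha and Dicer, after which one strand, the guide, is kept in an Argonaute protein and the other, the passenger, is mostly discarded. The guide finds its targets mainly through its seed, bases 2 to 8 from the 5′ end. miR-17-92 is induced by MYC and E2F factors and is known as an oncogenic cluster, with the pro-apoptotic Bcl2l11 and the cell cycle inhibitor Cdkn1a among its targets. In the testis it is known mainly from spermatogonia, and its loss from male germ cells lowers sperm output. AGO2, the Argonaute not touched by the deletion, is the one with slicing activity on most targets.

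The hairpins lie within 836 bases, at chr14:115043671-115044506 on the plus strand of GRCm38, in the order miR-17, miR-18a, miR-19a, miR-20a, miR-19b-1 and miR-92a-1. All 9 members fall in exon 2 of the 2-exon lincRNA Mir17hg (GENCODE vM21), so none is intronic. The mature sequences of RefSeq (GRCm38.p6), with the seed in capitals, are shown for the 7 members on which the results turn and for miR-92a-1-5p, the passenger arm of the last hairpin, because the guides fall into 4 seed groups within which they differ by few bases.
mmu-miR-17-5p: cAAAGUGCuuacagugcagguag
mmu-miR-20a-5p: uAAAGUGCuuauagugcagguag
mmu-miR-18a-5p: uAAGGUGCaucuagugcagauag
mmu-miR-18a-3p: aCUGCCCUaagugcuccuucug
mmu-miR-19a-3p: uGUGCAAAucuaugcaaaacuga
mmu-miR-19b-3p: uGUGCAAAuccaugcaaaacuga
mmu-miR-92a-3p: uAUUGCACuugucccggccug
mmu-miR-92a-1-5p: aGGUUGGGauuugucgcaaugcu
miR-17-5p and miR-20a-5p have the same seed and differ at 2 of 23 bases, C1U and C12U (counted from 1 at the 5′ end, miR-17-5p first). miR-19a-3p and miR-19b-3p also share theirs and differ by 1 substitution, U11C. miR-18a-5p has its own seed, AAGGUGC, and miR-92a-3p that of miR-25. The guides also differ in GC content, from 34.8% in miR-19a-3p through 39.1% in miR-19b-3p and miR-20a-5p, 43.5% in miR-18a-5p and 47.8% in miR-17-5p to 57.1% in miR-92a-3p.

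Both miR-19b-3p and miR-92a-3p have a second, identical copy on the minus strand of chromosome X (chrX:52741991-52742013 and chrX:52741854-52741874), in the paralogous miR-106a-363 cluster, and their counts cannot be told apart by locus. Such reads may also enter the table more than once. miR-199a-3p, which comes from 2 hairpins, had 1.99 to 2.01 times the counts of miR-199b-3p, which has the same mature sequence and 1 hairpin. Of the 24 libraries, the count was odd in 6 for miR-19b-3p and in 14 for miR-92a-3p. The levels of miR-19b-3p and miR-92a-3p may therefore be up to 2 times too high beside single-copy members, which bears on shares and on the order of levels, while their changes between genotypes compare like with like. The other products of that X-linked cluster were scarce. The passenger arms miR-19b-2-5p and miR-92a-2-5p had 0 counts in all 24 libraries, and miR-106a-5p, miR-20b-5p and miR-363-3p, its most counted other products, reached at most 23, 18 and 25 counts in a library.

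The members were spread over more than 3 orders of magnitude. In wild-type round spermatids the mean level was 29008 ± 7282 CPM (SD, n = 4) for miR-92a-3p, the 9th most counted of all miRNAs, 2722 ± 819 CPM for miR-20a-5p and 1082 ± 241 CPM for miR-17-5p. The miR-19 pair followed, with 385 ± 29.5 CPM for miR-19b-3p and 233 ± 69.3 CPM for miR-19a-3p, and then miR-18a-5p with 125 ± 26.8 CPM. The passenger arms came last, at 49.5 ± 23.3 CPM for miR-18a-3p, 33.2 ± 16.1 CPM for miR-17-3p and 4.79 ± 3.21 CPM for miR-20a-3p. In this order miR-19a-3p and miR-18a-5p overlapped between libraries, as did miR-18a-3p and miR-17-3p, and the other neighbours did not, although miR-19b-3p and miR-19a-3p were within the 2-fold that a repeated count of miR-19b-3p could give. Wild-type spermatocytes gave the same order, with 27873 ± 3112 CPM for miR-92a-3p, which was 7th of all miRNAs, 4011 ± 778 CPM for miR-20a-5p and 1350 ± 411 CPM for miR-17-5p. Ligation and amplification favour some small RNAs over others, so an order of counts need not be an order of molecules. Summed over its members, the cluster took 2.67% to 7.43% of a library's counts, and miR-92a-3p alone was 65.3% to 98.8% of the cluster.

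A pair of spermatocyte libraries stood apart on these members. In Ago413-/- spermatocyte replicate 2, the smallest library of the series, miR-17-5p had 28 counts (186 CPM, against 1185 to 1613 CPM in the other 3 of its group), miR-20a-5p 102 counts (679 CPM, against 4606 to 5951) and miR-19b-3p 9 counts (59.9 CPM, against 652 to 1240). In the same library miR-92a-3p was the highest of the series at 89401 CPM. Ago413+/- spermatocyte replicate 4 had the same pattern in milder form, with 497 CPM of miR-17-5p against 950 to 2763 CPM in its group, 1814 CPM of miR-20a-5p against 4118 to 7865 CPM, and 52101 CPM of miR-92a-3p against 22015 to 41351 CPM. In both libraries miR-17-5p, miR-17-3p, miR-18a-5p, miR-19a-3p, miR-19b-3p and miR-20a-5p were below every other library of the group. The other tested members, miR-18a-3p and miR-92a-3p, were not. miR-93-5p and miR-106b-5p of the unlinked miR-106b-25 cluster, which carry the miR-17 seed, were below their groups too. The share of all tested miRNAs that were likewise lowest in these libraries is not given here, so the pattern is not shown to be particular to the members. The number of miR-92a-3p counts per miR-20a-5p count was 131.6 and 28.7 in these libraries and 2.80 to 14.5 in the other 22. The 2 libraries had GC slopes (the change per 10 percentage points of GC in the log2 deviation of a miRNA from its median over the libraries) of 0.31 and 0.11, of which the first was the steepest of all. The part of base composition in this pattern was not tested. The spermatocyte and stage comparisons are therefore given with and without them.

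**Figure D1:**
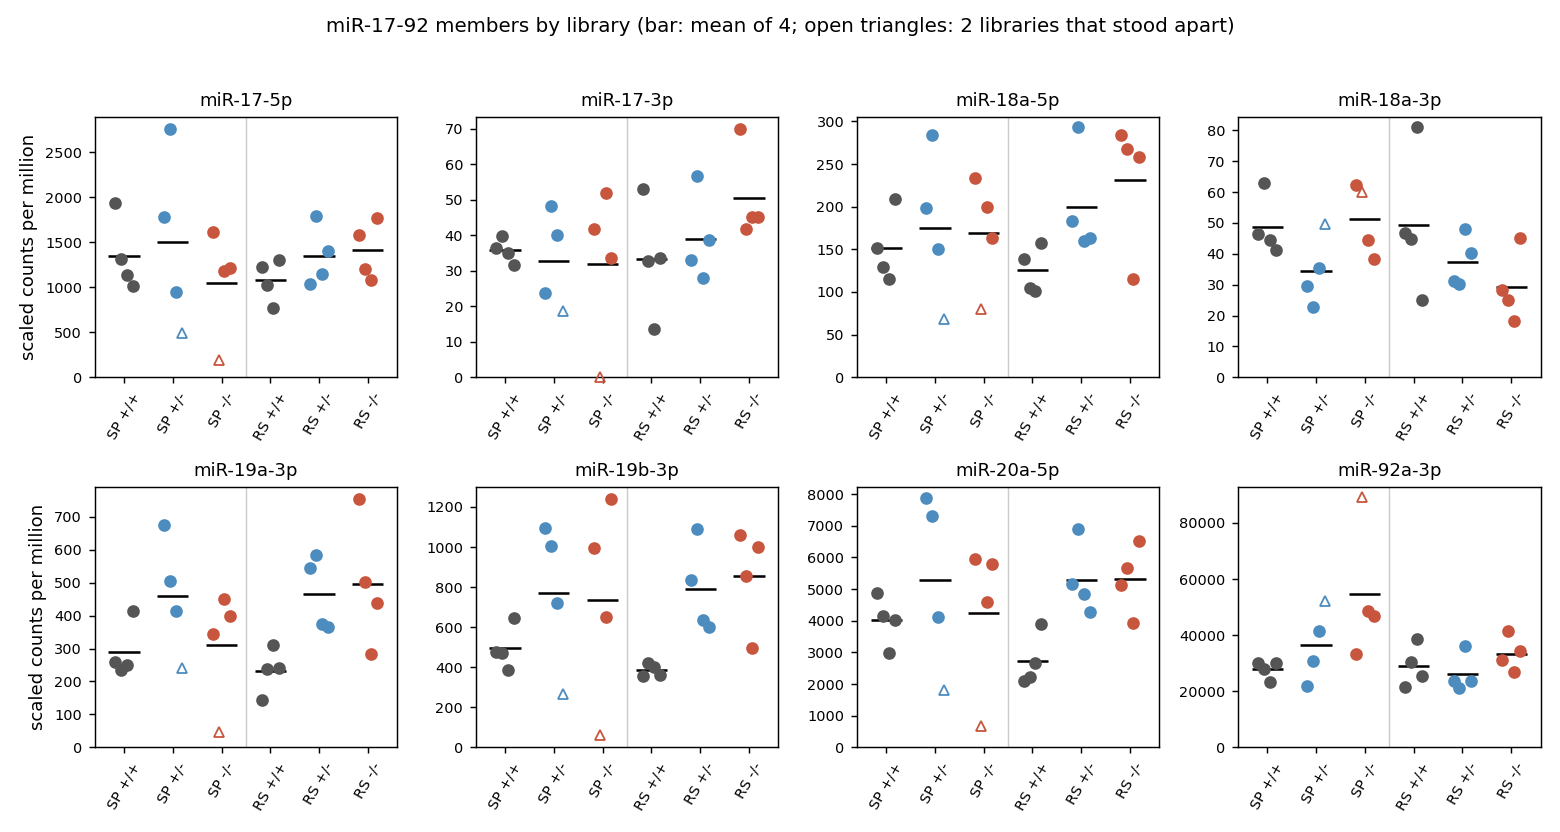
Level of the 8 tested miR-17-92 members in each library, in scaled CPM on linear axes from 0, for spermatocytes (SP, left of the grey line) and round spermatids (RS) of the 3 Ago413 genotypes. Points are libraries, bars are means of 4, and open triangles are the 2 spermatocyte libraries that stood apart, which lie low for miR-17-5p, miR-19a-3p, miR-19b-3p and miR-20a-5p and high for miR-92a-3p.

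Whether the members change when AGO1, AGO3 and AGO4 are lost was asked first in round spermatids, where miR-18a-5p, miR-19a-3p, miR-19b-3p and miR-20a-5p were higher in the knockout by 2.00-fold to 2.45-fold. Of the 8 members tested, 4 were called higher in Ago413-/- than in Ago413+/+ round spermatids and 0 lower (edgeR quasi-likelihood test, Benjamini-Hochberg adjusted p under 0.05 and at least a 2-fold change). Over all 426 miRNAs tested, 16.2% were called, 7.51% higher and 8.69% lower. The members' median log2 fold change was 0.85, against 0.13 over all tested miRNAs. miR-20a-3p had at most 8 counts in a library and was not tested.

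miR-19b-3p, one of the pair of guides with the miR-19 seed, was at 358, 419, 399 and 362 CPM in the 4 wild-type libraries and at 1062, 857, 494 and 999 CPM in the 4 Ago413-/- libraries. The groups did not overlap, and its log2 fold change was 1.29 ± 0.27 (SE, adjusted p = 0.0039). miR-20a-5p, the most counted guide with the miR-17 seed, was at 2110, 2219, 2659 and 3898 CPM in wild-type and at 5120, 5664, 3938 and 6505 CPM in Ago413-/- libraries. These groups were also apart, if barely so at 3898 against 3938 CPM, with a log2 fold change of 1.10 ± 0.24 (adjusted p = 0.0059). Groups in which Ago413-/- lay wholly above wild-type made up 8.22% of all tested miRNAs.

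The other called guides overlapped between the genotypes. miR-19a-3p was at 142.4, 237, 311 and 241 CPM in wild-type and at 755, 501, 284 and 439 CPM in Ago413-/- libraries, where replicate 3 lay within the wild-type range. Its log2 fold change was 1.24 ± 0.31 (adjusted p = 0.011). miR-18a-5p was at 138, 105, 102 and 157 CPM in wild-type and at 284, 267, 115 and 258 CPM in Ago413-/- libraries, with replicate 3 again the lowest. Its log2 fold change of 1.00 ± 0.31 (adjusted p = 0.029) sat on the 2-fold threshold, and miR-18a-5p was called in 2 of 18 alternative analyses. The corresponding numbers were 17 of 18 for miR-19b-3p, 15 of 18 for miR-19a-3p and 9 of 18 for miR-20a-5p.

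The remaining members did not pass the test. miR-17-5p, which differs from miR-20a-5p at 2 bases, was at 1229, 1023, 768 and 1307 CPM in wild-type and at 1579, 1208, 1084 and 1766 CPM in Ago413-/- libraries (log2 fold change 0.51 ± 0.26, adjusted p = 0.17). miR-92a-3p was at 21664, 30286, 38564 and 25517 CPM in wild-type and at 31108, 41512, 26706 and 34392 CPM in Ago413-/- libraries (0.36 ± 0.21, adjusted p = 0.23). Both overlapped between genotypes. Among the passenger arms, the log2 fold change was 0.70 ± 0.37 for miR-17-3p (adjusted p = 0.19) and -0.56 ± 0.37 for miR-18a-3p (adjusted p = 0.28), which rest on 4 to 49 counts a library.

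The number of called members depended on single libraries. It was 1 of 8, miR-19b-3p, without wild-type replicate 1 or without Ago413-/- replicate 1, and 2 of 8, miR-19a-3p and miR-19b-3p, without wild-type replicate 2 or without Ago413-/- replicate 4. On library totals without scaling, 2 members were called and the split of all called miRNAs moved from 32 higher and 37 lower to 16 higher and 52 lower, with the median of all tested miRNAs at -0.09. The factors of the 12 round spermatid libraries put Ago413-/- 0.15 (log2) higher relative to wild-type than the factors over all 24, on which the CPM values stand.

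**Figure D2:**
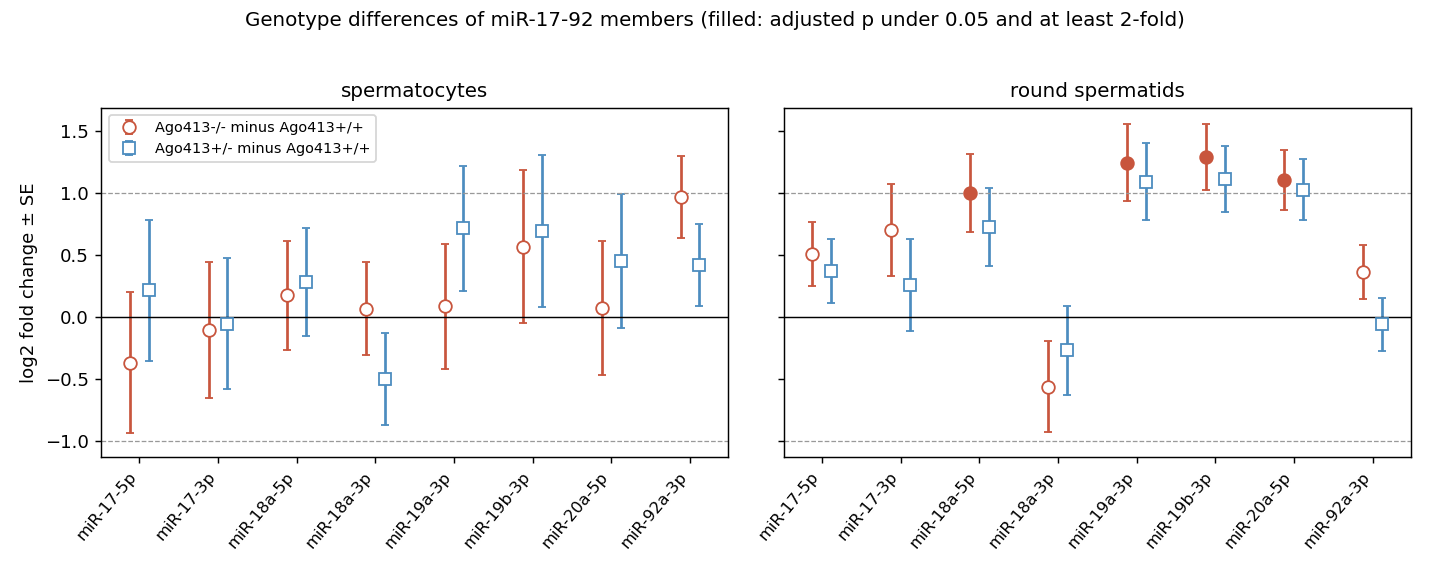
Log2 fold change with its standard error for the 8 tested members, Ago413-/- (circles) and Ago413+/- (squares) against Ago413+/+, in spermatocytes and in round spermatids, with dashed lines at a 2-fold change. Filled symbols passed the test: miR-18a-5p, miR-19a-3p, miR-19b-3p and miR-20a-5p in Ago413-/- round spermatids, at 1.00, 1.24, 1.29 and 1.10.

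The heterozygotes, which keep 1 intact chromosome, had values above wild-type for the same 4 guides, which did not pass the threshold. In Ago413+/- against Ago413+/+ round spermatids 0 of 8 members, and 0% of all 426 miRNAs, were called by edgeR. At an unadjusted p under 0.05 there were 4 members, and DESeq2 called 3 of them (miR-19a-3p, miR-19b-3p and miR-20a-5p). The share of all tested miRNAs at either of these settings is not given here, so neither count is set against a background. miR-19b-3p was at 837, 1088, 637 and 599 CPM in the Ago413+/- libraries (log2 fold change 1.11 ± 0.27, adjusted p = 0.062), and miR-20a-5p at 5161, 6906, 4844 and 4260 CPM (1.03 ± 0.24, adjusted p = 0.062). miR-19a-3p was at 544, 583, 374 and 364 CPM (1.09 ± 0.31, adjusted p = 0.16), and miR-18a-5p at 183, 294, 159 and 163 CPM (0.73 ± 0.31, adjusted p = 0.31). Every Ago413+/- library lay above every wild-type library for these 4 guides, which was so for 2.82% of all tested miRNAs. The call changed without wild-type replicate 4, when 1 member, miR-20a-5p, was called. This comparison and that of Ago413-/- share the same 4 wild-type libraries.

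Set directly against each other, Ago413-/- and Ago413+/- round spermatids differed in 0 of 8 members (edgeR, with 0 at an unadjusted p under 0.05 and 0 by DESeq2), while 12.4% of all tested miRNAs were called. The members' log2 fold changes lay between -0.29 and 0.44. The passenger arm of the last hairpin, miR-92a-1-5p, was called lower in Ago413-/-, as were 7.28% of all tested miRNAs. It was at 49.4, 83.5, 60.7 and 63.1 CPM in Ago413+/- and at 15.0, 19.5, 20.6 and 23.7 CPM in Ago413-/- libraries, without overlap, with a log2 fold change of -1.62 ± 0.39 (adjusted p = 0.011). Against wild-type, at 28.5, 15.5, 37.2 and 61.1 CPM, miR-92a-1-5p did not pass the test (-0.71 ± 0.40, adjusted p = 0.21). It rests on 7 to 16 counts in the Ago413-/- libraries.

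The round spermatid fractions were also compared in miRNAs of other cells and in base composition. Against wild-type, markers of several lists were called higher in Ago413-/-, and edgeR called 0 of any list in Ago413+/-. Of the marker lists, miRNAs known from gonadal soma (miR-202-5p and miR-202-3p) summed to 2497 to 8167 CPM in wild-type, 2796 to 8395 CPM in Ago413+/- and 9023 to 15961 CPM in Ago413-/- libraries, with 1 of 2 called higher in Ago413-/-. Spermatogonial miRNAs (miR-21a-5p, miR-221-3p, miR-222-3p and miR-146a-5p) summed to 5673 to 9575 CPM, 10421 to 16859 CPM and 12580 to 14474 CPM, with 1 of 4 called higher. The sum was carried by miR-21a-5p (7243 ± 1647, 10995 ± 2208 and 10311 ± 1099 CPM in wild-type, Ago413+/- and Ago413-/-) and miR-146a-5p (669 ± 335, 1767 ± 682 and 3501 ± 621 CPM). The mean of miR-222-3p was below wild-type in both mutant genotypes and that of miR-221-3p in Ago413+/-, and 0 of 4 were called by edgeR in Ago413+/-. The sums for endothelium (miR-126a-3p and miR-126a-5p) were 511 to 1988 CPM in wild-type and 1949 to 5852 CPM in Ago413-/- libraries, for leukocytes (miR-223-3p, miR-142a-3p and miR-150-5p) 47.4 to 75.5 CPM and 122 to 173 CPM, for blood (miR-451a, miR-144-3p and miR-486a-5p) 49.1 to 501 CPM and 103 to 4807 CPM, and for mesenchyme (miR-199a-3p and miR-214-3p) 1624 to 3254 CPM and 3114 to 4931 CPM. Of these lists 1 of 2, 1 of 3, 2 of 2 tested and 1 of 2 were called higher. Over all 426 miRNAs tested, 7.51% were called higher. In Ago413+/- libraries the sums were 857 to 1158 CPM for endothelium, 55.6 to 224 CPM for leukocytes, 179 to 1153 CPM for blood and 1185 to 2332 CPM for mesenchyme. The peritubular pair (miR-143-3p and miR-145a-5p), at 1059 to 8545 CPM and 2029 to 3440 CPM, and the meiotic miRNAs (miR-34b-5p, miR-34c-5p and miR-449a-5p), at 59185 to 108282 CPM and 70316 to 133692 CPM, had 0 called by edgeR. Their sums in Ago413+/- libraries were 1315 to 5309 CPM and 86484 to 185930 CPM. Every list had counts in every library, and the part of other cells in the members' result was not tested.

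The called members were the 4 tested members with the lowest GC content, from 34.8% to 43.5%, and the members from 47.8% to 57.1% GC were not called. The GC slope was -0.01, 0.02, 0.15 and 0.23 in the wild-type round spermatid libraries, in increasing order. It lay between -0.19 and 0.02 in the Ago413+/- libraries and between -0.12 and -0.01 in the 4 Ago413-/- libraries. With an offset that removed each library's trend on GC, an alternative chosen after seeing the data, 0 of 8 members were called. The log2 fold changes were then 0.95 for miR-19b-3p (edgeR, adjusted p = 0.016), 0.79 for miR-20a-5p (adjusted p = 0.022), 0.77 for miR-19a-3p (adjusted p = 0.058) and 0.82 for miR-18a-5p (adjusted p = 0.058). The part of base composition in the members' result was not tested.

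**Figure D3:**
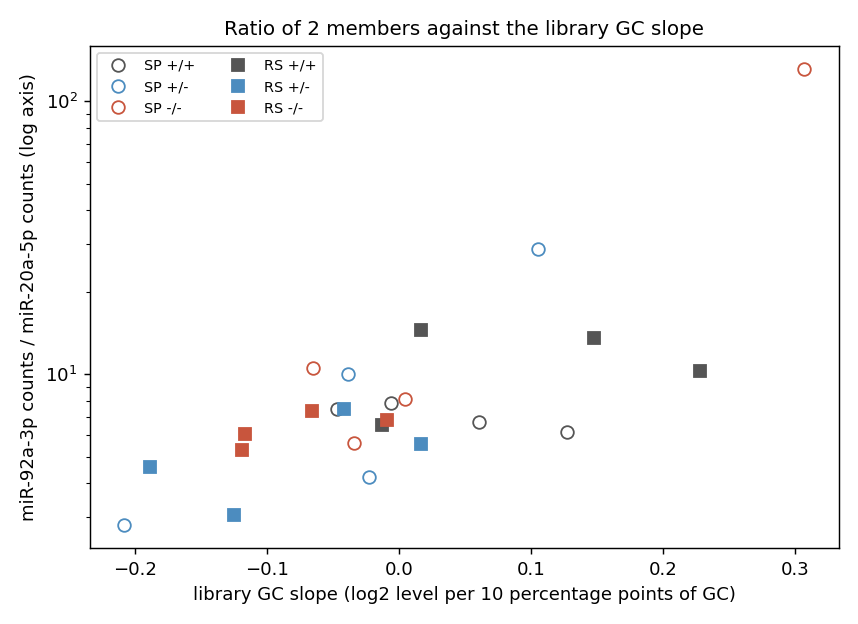
Counts of miR-92a-3p (57.1% GC) per count of miR-20a-5p (39.1% GC), on a log axis, against the GC slope of the library, for all 24 libraries (open circles spermatocytes, filled squares round spermatids, coloured by genotype). The ratio was 10.3, 13.7, 14.5 and 6.55 in the wild-type and 5.29 to 7.33 in the Ago413-/- round spermatid libraries, and the spermatocyte library at 131.6 had the steepest slope.

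The 2 arms of a hairpin come from 1 precursor, so their ratio does not depend on how much of the cluster was transcribed. In round spermatids the 3′ arm of miR-18a, its passenger, held 25.3%, 29.9%, 44.4% and 13.8% of the hairpin's counts in the wild-type libraries and 9.04%, 8.57%, 13.6% and 14.9% in the Ago413-/- libraries. The groups overlapped only between the lowest wild-type and the highest Ago413-/- library. The log2 ratio of 3′ to 5′ arm was -2.94 in Ago413-/- and -1.42 in wild-type, a difference of -1.51 ± 0.46 (SE, limma, adjusted p = 0.026), in a comparison in which 28.8% of 73 hairpins passed. The Ago413+/- libraries, at 14.6%, 9.28%, 23.2% and 19.7%, had a mean between those of the other genotypes and overlapped both. Their difference from wild-type was -0.95 ± 0.46 (limma, adjusted p = 0.26). The call was lost without wild-type replicate 1, 2 or 3 or without Ago413-/- replicate 1 or 2, with differences of -1.55, -1.45, -1.14, -1.40 and -1.38 and adjusted p of 0.050 to 0.077. The passenger arm of miR-18a was counted 9 to 49 times a library. The arms also differ in GC content, 43.5% in miR-18a-5p and 54.5% in miR-18a-3p. The part of base composition or of other cells in their ratio was not tested.

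A ratio was tested where the 2 arms summed to 50 or more counts in all 12 libraries of the stage and each arm had 10 or more in 3 of them. miR-20a did not meet the second condition, with at most 8 counts of its 3′ arm in any library of either stage, and miR-17 gave the other tested ratio. Its 3′ arm held 4.13%, 3.11%, 1.73% and 2.5% of the hairpin in wild-type and 4.23%, 3.34%, 4.0% and 2.5% in Ago413-/- libraries, with a difference of 0.31 ± 0.32 (limma, adjusted p = 0.47). The difference between the 2 hairpins was not tested. In spermatocytes no miR-17-92 hairpin met both conditions, since in Ago413-/- replicate 2 miR-17 had 28 counts over both arms and miR-18a 21. With that library left out, 1 hairpin, miR-17, met them and was not called.

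**Figure D4:**
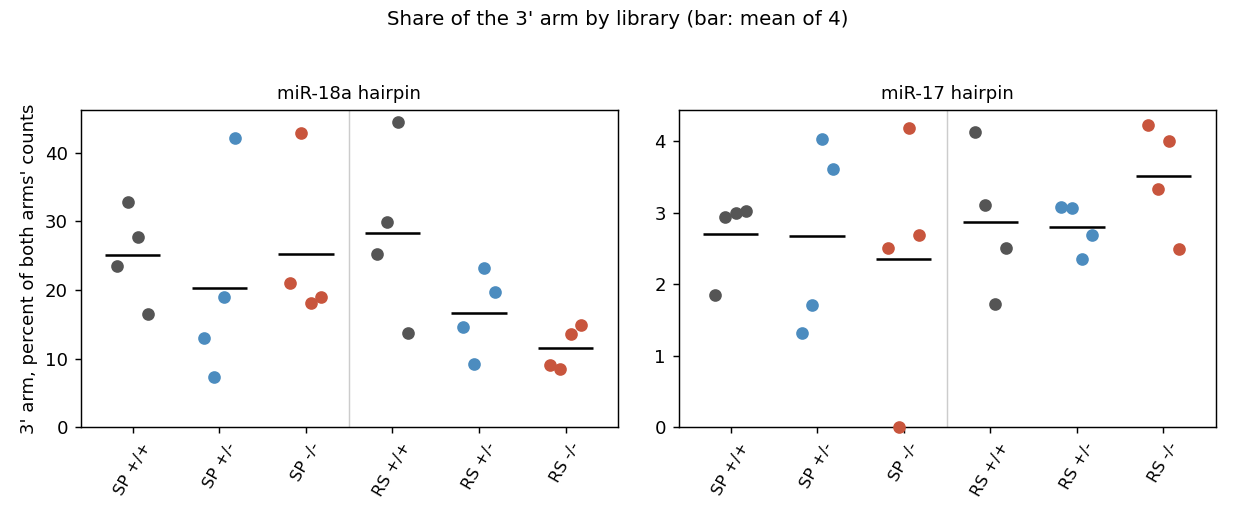
Share of the 3′ (passenger) arm in the counts of both arms of the miR-18a and miR-17 hairpins, in percent on linear axes from 0, by library (points) with the mean of 4 (bars). In round spermatids the Ago413-/- libraries lie at 8.57% to 14.9% for miR-18a, against 13.8% to 44.4% in wild-type.

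Other miRNAs carry the same seeds, so the guides were also summed by seed over all miRNAs of the table with a RefSeq sequence. Each miRNA without one was kept as a family of its own. TMM factors were computed anew on the summed counts, so log2 fold changes of families and of single miRNAs are on different scales. Tested singly in Ago413-/- against wild-type round spermatids, miR-18a-5p was at 1.00, miR-19a-3p at 1.24 and miR-19b-3p at 1.29. In round spermatids 1 of the 4 seed families of the cluster was called higher in Ago413-/-, against 15.9% of 353 families. This was the miR-19 family, which has no member outside miR-19a-3p and miR-19b-3p, at 1348 ± 429 CPM in Ago413-/- and 618 ± 89.5 CPM in wild-type (log2 fold change 1.03 ± 0.27, edgeR, adjusted p = 0.013). The call was lost without wild-type replicate 1, Ago413-/- replicate 1 or Ago413-/- replicate 4 (0.93, 0.91 and 0.97, adjusted p = 0.042, 0.032 and 0.034). The miR-18 family, 99.6% of it miR-18a-5p, was at 233 ± 79.3 CPM in Ago413-/- round spermatids (0.79 ± 0.30, adjusted p = 0.076), and it passed without Ago413-/- replicate 3 (1.05, adjusted p = 0.023).

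The 2 larger families also hold products of other clusters, and neither passed. The miR-17 family, of which miR-20a-5p made 42.5%, miR-93-5p 43.0% and miR-17-5p 13% of the counts, was at 11818 ± 2605 CPM in Ago413-/- and 7723 ± 1521 CPM in wild-type (0.54 ± 0.21, adjusted p = 0.073). The family of miR-92a-3p (60.8%) and miR-25-3p (38.5%) was at 53110 ± 7035 and 50184 ± 14504 CPM (0.00 ± 0.21, adjusted p = 0.99). In spermatocytes edgeR called 0 of the 4 families, against 6.87% of 335 families. At an unadjusted p under 0.05 there was 1, that of miR-92a-3p and miR-25-3p (log2 fold change 0.70, edgeR, adjusted p = 0.12). DESeq2 called 0, and the share of all families at either of these settings is not given here. Without the 2 libraries that stood apart, 0 were called, with log2 fold changes of 0.43 to 0.84 and a lowest adjusted p of 0.020.

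The paralogous clusters had few products to compare. Of the miR-106b-25 cluster, which sits in an intron of the replication gene Mcm7, 6 of 6 mature miRNAs were tested in round spermatids. In Ago413-/- against wild-type 2 were called lower, both of them minor arms, against 8.69% of all 426 miRNAs tested. miR-25-5p was at 51.7 ± 3.87 CPM in Ago413-/- and 129 ± 35.7 CPM in wild-type (log2 fold change -1.15 ± 0.30, edgeR, adjusted p = 0.012), and miR-93-3p at 15.9 ± 2.40 and 43.6 ± 24.4 CPM (-1.22 ± 0.38, adjusted p = 0.030). Both miR-93-5p and miR-106b-5p of that cluster carry the miR-17 seed, and neither was called. miR-93-5p was at 4966 ± 1223 and 3800 ± 679 CPM (0.53 ± 0.22, edgeR, adjusted p = 0.080), and miR-106b-5p at 104 ± 49.5 and 99.5 ± 22.8 CPM. Of the X-linked miR-106a-363 cluster 2 of 10 were tested and 0 were called by edgeR, with 0 at an unadjusted p under 0.05. Outside these clusters, miR-92b-3p (-0.25 ± 0.25) and miR-32-5p (0.65 ± 0.38) share the miR-92 seed and did not pass.

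In spermatocytes no member passed the test. In Ago413-/- against Ago413+/+, edgeR called 0 of 8 members, against 4.46% of 404 miRNAs. At an unadjusted p under 0.05 there was 1 member, and DESeq2 called 0. The share of all miRNAs at either of these settings is not given here. The lowest p was that of miR-92a-3p, which was at 29980, 27938, 23452 and 30124 CPM in wild-type and at 33448, 89401, 48664 and 46951 CPM in Ago413-/- libraries. The groups did not overlap, as for 7.18% of all tested miRNAs, and the log2 fold change was 0.97 ± 0.33 (adjusted p = 0.087, and 0.042 by DESeq2, below the 2-fold threshold in both). Leaving out both libraries that stood apart, it was 0.63 (adjusted p = 0.085). miR-19b-3p was at 478, 472, 386 and 647 CPM and at 994, 59.9, 652 and 1240 CPM, with a log2 fold change of 0.57 ± 0.61 (adjusted p = 0.62) that became 0.97 (adjusted p = 0.050) without them. miR-17-5p was at 1941, 1310, 1132 and 1019 CPM and at 1613, 186, 1185 and 1216 CPM, and its log2 fold change of -0.37 ± 0.57 (adjusted p = 0.73) became 0.00 without them. No member was called without them either. For Ago413+/- against Ago413+/+ and for Ago413-/- against Ago413+/- edgeR called 0 of 8 members, against 0% and 2.23% of 404 miRNAs. In both comparisons 0 members were at an unadjusted p under 0.05 and DESeq2 called 0. Without the 2 libraries that stood apart there were also 0 of 8 called in either, with log2 fold changes from -0.68 to 1.02 (lowest adjusted p = 0.14) and from -0.54 to 0.69 (lowest adjusted p = 0.20).

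Between the stages no member passed the test either. In round spermatids against spermatocytes edgeR called 0 of 8 members in Ago413+/+, Ago413+/- or Ago413-/-, against 0%, 0% and 4.89% of 450 miRNAs. At an unadjusted p under 0.05 there were 0, 0 and 2 members, and DESeq2 called 0 in each. The share of all miRNAs at either of these settings is not given here. The members' log2 fold changes lay between -0.56 and 0.06 in wild-type and between -0.83 and 0.66 in Ago413-/- cells. Whether the effect of the knockout differed between round spermatids and spermatocytes was tested as an interaction, which called 0 of 8 members and 0% of 450 miRNAs (edgeR, with 0 members at an unadjusted p under 0.05 and 0 by DESeq2, lowest adjusted p = 0.41). Without the 2 libraries that stood apart, 0 of 8 members were called in each of the 3 stage comparisons and in the interaction, where the lowest adjusted p was 0.48. A different response of the 4 guides in spermatocytes is therefore not shown.

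Across the 24 libraries the miRNAs whose pattern was most like the mean of the members, of 430 compared outside the cluster and its paralogs, were miR-449a-5p (Pearson r = 0.91), miR-16-5p (0.87), miR-96-5p (0.87), miR-135a-5p (0.86) and miR-340-5p (0.85). Without the 2 libraries that stood apart the values were 0.81, 0.78, 0.74, 0.73 and 0.69. The members themselves did not share a single pattern. miR-17-5p and miR-20a-5p correlated at 0.88, while miR-92a-3p correlated at -0.69 with miR-17-5p and at -0.51 with miR-20a-5p. Leaving out the 2 libraries, these were 0.67, -0.25 and 0.10. miR-18a-3p correlated at -0.40 with miR-17-5p and at -0.46 with miR-20a-5p, and at -0.30 and -0.38 without the 2 libraries. The 5 miRNAs were counted in the same libraries and at the same depth as the members, so these values are descriptions.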

How the data were processed

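Small RNA libraries were trimmed with Trim Galore per the labels, and the authors mapped and quantified the reads with miRDeep2 against mouse miRBase entries. The deposited table holds raw read counts per mature miRNA, without normalization or molecular identifiers. How reads that match several hairpins were counted is not given in the sources used here. The 9 members and all lists were chosen with earlier results of these data known.

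A miRNA was tested if 3 or more libraries held 10 or more of its reads, which left 404 in spermatocytes, 426 in round spermatids and 450 over both. Counts were scaled by TMM and tested with edgeR 4.0.16 (glmQLFit and glmQLFTest, R 4.3.3), fitting the 12 libraries of a cell type, or all 24 for comparisons between cell types. A call needed a Benjamini-Hochberg adjusted p under 0.05 over all miRNAs tested and a log2 fold change of at least 1. Arm ratios were tested with limma 3.58.1 on hairpins whose arms summed to 50 or more counts in all libraries fitted, with 10 or more of each arm in 3 of them. Seed families were summed over miRNAs with a RefSeq sequence, 1679 of 1978, and scaled by TMM factors computed on the family counts. The remaining miRNAs entered the family fits singly. miRNAs named were the members, their other arms and the miRNAs that share a paralogous cluster or a seed, and the 5 most correlated with the members, beside the markers of cell types and the miR-199 pair used to check counting, which was chosen after its values were seen.

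Alternatives were DESeq2 1.42.0, RLE factors, library totals, other filters, a term for the library number, a block for the replicate number, the 2 genotypes alone, each library left out, an offset for GC content and leaving out both libraries that stood apart, of which the last 2 were chosen after seeing the data. Scripts were tested on simulated data. Libraries of one group differed by more than sampling noise in all 36 pairs (chi-square per degree of freedom 22.8 to 260). Depth was 182904 to 1072637 counts a library, which limits the precision of the passenger arms most.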

Additional observations from a re-analysis of the deposited data

Results flagged for a closer look

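Values of 60 groups of 4 libraries were checked for one library far from the other 3 (by Dixon's ratio of the gap to the range), of which chance flags about 1 in 20, and 6 were found. In Ago413-/- round spermatids, replicate 1 had 69.8 CPM of miR-17-3p against 41.7 to 45.2 CPM in the others, and replicate 3 had 114.8 CPM of miR-18a-5p against 258 to 284 CPM. In wild-type spermatocytes, replicate 4 had 412 CPM of miR-19a-3p against 235 to 259 CPM, and replicate 1 had a miR-17 arm ratio (log2 of 3′ over 5′) of -5.70 against -5.02 to -4.94. Ago413+/- round spermatid replicate 3 had 36214 CPM of miR-92a-3p against 21158 to 23687 CPM. Ago413-/- spermatocyte replicate 2, which stood apart on most members, had a miR-18a arm ratio of -0.40 against -2.12 to -1.89.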

How the results depend on the processing

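The 4 members called in Ago413-/- against wild-type round spermatids became 2 on library totals, 2 without a filter, 2 with at least 10 counts in every library, 2 with only the compared genotypes and 0 with the GC offset, and 1 to 4 with each library left out. The cause was not tested. In Ago413+/- against wild-type the count of 0 became 3 with DESeq2 and 1 without a filter, and 0 to 1 with a library left out. The miR-18a arm call (1) ranged from 0 to 1 and the seed family call (1) from 0 to 2 with a library left out. Of 13 counts of calls, 9 were the same under every alternative run. The sign reversed for miR-17-5p in spermatocytes (0.00195 without both libraries that stood apart) and for the seed of miR-92a-3p in round spermatids (-0.15 to 0.17 with a library left out, -0.0578 and -0.0173 among them). Whether the replicate numbers pair the stages is unsettled. Library numbers were consecutive in 11 of 12 same-number pairs, but their deviations correlated at -0.16 to 0.42, over 0.1 in 6 of 12, and 4 of 12 spermatocyte libraries were closest to their own number. With a replicate block, 3 members were called in Ago413-/- against wild-type round spermatids and 0 in each stage comparison and the interaction. Counts below 50 a library limit the passenger arms, and miR-20a-3p, with 62 counts in all, was below the filter.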
